A study of Gallus gallus with 28 samples.

Results

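In the intestine of male chicks sampled at 7 ages around hatching, 4 arrays were recorded per age, and the first 2 arrays of every age were set against the last 2. This gave 14 arrays against 14 of the 28 in the series. Of 8396 genes measured, 125 had first and last pairs that did not overlap, in 1 direction, at all 7 ages: 72 were lower and 53 higher in the last pair. The split follows the numbers in the array titles, which run in record order, and was itself chosen by measured values of these arrays. It is therefore described here without a test. The labels assign no condition to either side of it.

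The ages were embryonic day 18 (e18), embryonic day 20 (e20), the day of hatch, and 1, 3, 7 and 14 days after hatch (d1, d3, d7 and d14). All birds were male and the labels name no treatment. Segments of intestine from 6 birds of each age gave the RNA, which was labelled with biotin for Affymetrix chicken arrays. The design text names the small intestine, whereas the tissue label reads whole intestine. It also names 2 lines of birds, A and B, and 2 pools, and assigns neither to an array, so line, pool, collection and any other difference between the first and last arrays of an age cannot be told apart. Nothing says that the arrays of an age came from separate birds, so the spread between them, and every p-value given below for age, may be technical.

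In the days around hatching yolk gives way to solid feed, and the villus epithelium becomes the route by which nutrients enter. Expression in whole intestine sums over enterocytes, crypt cells, muscle, nerve, vessels and immune cells. In such bulk RNA fewer cells of a type and less RNA per cell cannot be told apart. An array reads a transcript through short probes, so that a level depends on how much transcript is present and on how well it matches those probes.

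Levels are given as log2 of the intensity that the authors deposited, 1 probe set per gene, and a difference is the mean of the last pair minus that of the first, averaged over the 7 ages. Its standard error comes from a fit with age as a block and is given as a measure of spread. A probe set at about 3 was at background (2.97 to 3.54 over the arrays). The enterocyte list, from villin to the fatty acid binding proteins, had mean levels of 7.17 to 11.42 in the first arrays and 7.03 to 11.54 in the last, so enterocyte transcripts were present in both sets. The median of all genes differed by -0.01 between the pairs. This is after the authors' processing, so it does not show how alike the arrays were before it. Control transcripts that compare the 3′ with the 5′ end of actin, GAPDH and EF1A differed by -0.13, -0.11 and -0.11, without overlap at 2 to 4 of the 7 ages. Single ages differed more. At e20 these differences were -0.54, -0.44 and -0.38, and at d1 that of actin was 0.41. The added hybridization controls differed by -0.12 to -0.15.

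The 2 largest differences belonged to genes that lie next to each other, LOC769668 (gene ID 769668) and LOC415661 (gene ID 415661). Both are protein-coding in the RefSeq gene table (assembly GRCg7b), which names neither. LOC769668 was at 9.91, 10.61 and 11.62 (lowest, median and highest) in the 14 first arrays and at 2.53, 3.36 and 4.09 in the 14 last arrays. No array of one set came near the other. Its difference was -7.34 ± 0.14 (SE), at least 155-fold, with the last pair at background at 3 ages. By age the difference ran only from 6.47 to 7.92 in size, the smallest at d7 and the largest at d1.

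LOC415661 was at 11.13, 11.82 and 12.95 in the first arrays and at 3.25, 5.09 and 7.42 in the last. Its difference was -6.52 ± 0.34, or 91.9-fold. Here the last arrays were not flat. They stood at 6.97 and 7.17 at e18, at 6.95 and 7.42 at e20 and at 7.12 and 6.94 at hatch. They then stood at 5.00 and 5.18 at d1, at 4.51 and 4.48 at d3, at 3.30 and 3.25 at d7 and at 4.31 and 3.26 at d14. Over the same ages the first arrays of LOC415661 kept between 11.13 and 12.95, with the highest values at d1. The size of the difference between the pairs thus widened from 4.49 at e18 to 8.17 at d7.

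**Figure D1:**
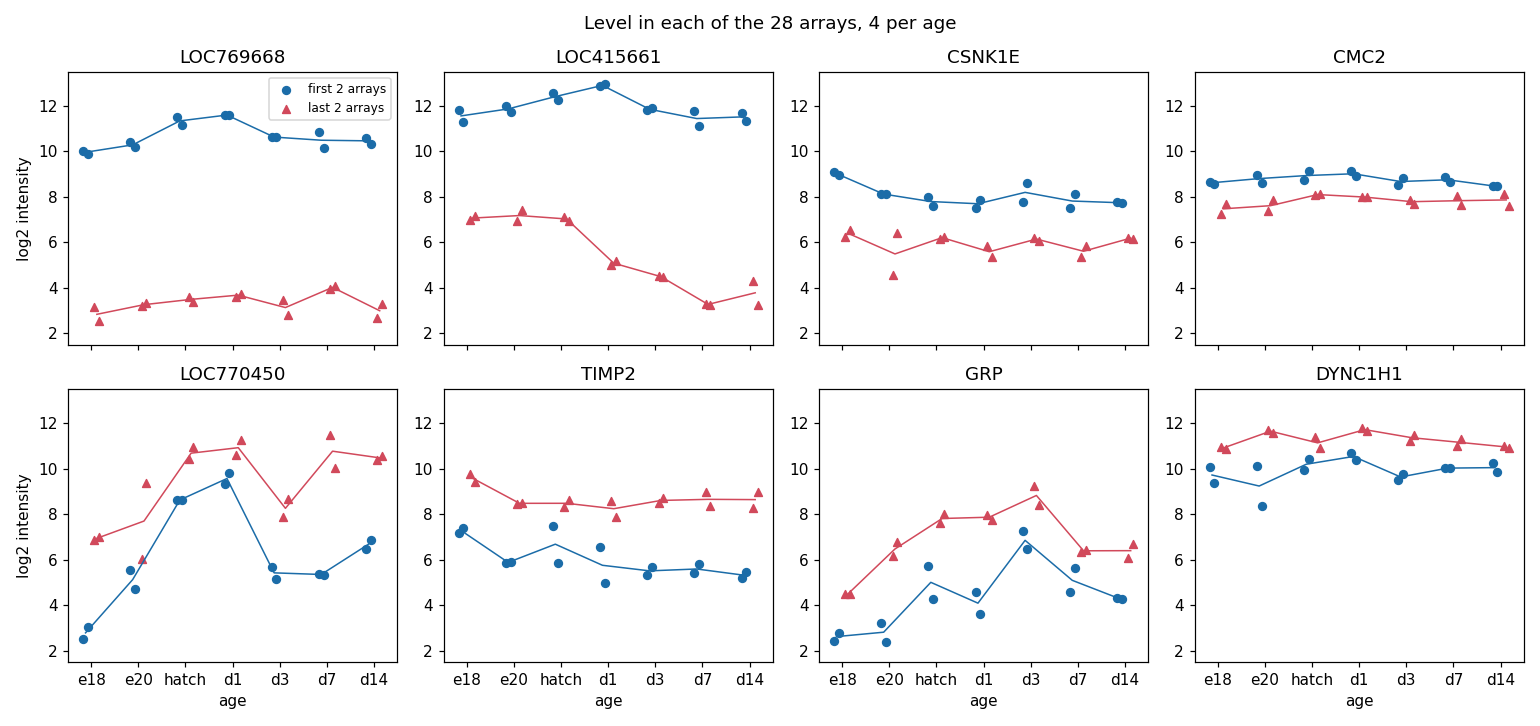
Level (log2 intensity, vertical axis) of 8 genes in each of the 28 arrays by age (horizontal axis). Circles are the first 2 arrays of an age, triangles the last 2, and lines join the means of the pairs. LOC769668 and LOC415661 are lower in the last arrays by 7.34 and 6.52 on average, and the last arrays of LOC415661 stand near 7 up to hatch and near 3 to 4 at d7 and d14.

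No measured neighbour of these 2 genes differed by more than 0.48 in size. In GRCg7b order, 21 protein-coding genes span the 10 on either side of LOC769668, and 9 of them passed the filter on low values. ELMO3, which takes part in engulfment of dying cells and in cell migration, was lower by -0.48 and did not overlap at 6 ages. E2F4, a transcription factor of the cell cycle, differed by -0.09. KIAA0895L differed by -0.04, FAM65A by -0.07, LOC415664 by -0.02, LOC107052159 by 0.04 and the chromatin insulator protein CTCF by 0.00. LOC415664 and LOC107052159 were dim, at means of 4.10 to 4.14 in both sets of arrays, and FAM65A was at 4.90 and 4.82. Differences of dim probe sets may be understated. LCAT, between KIAA0895L and LOC415661, was under the filter, and LOC415662, next to LOC769668 on its other side, had no value here.

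**Figure D2:**
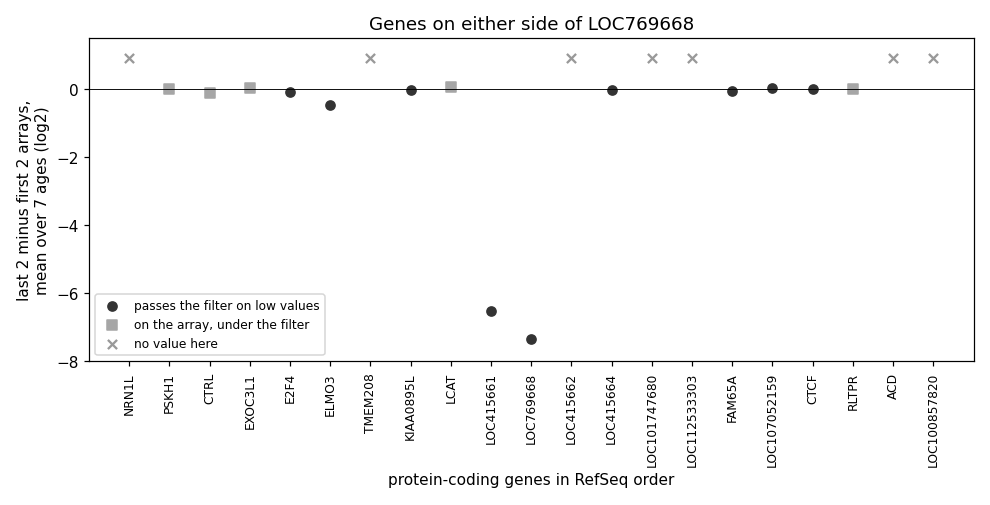
Mean difference over 7 ages, last 2 minus first 2 arrays (log2, vertical axis), for the protein-coding genes on either side of LOC769668 in RefSeq order (horizontal axis, not to scale). Circles passed the filter on low values, squares were under it, and crosses had no value here. LOC415661 at -6.52 and LOC769668 at -7.34 stand alone, with ELMO3 next at -0.48.

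Proximity within the genome was looked at for all members with a place in that order. Of 123 such members, 25 (20.3%) lay within 10 genes of another member, against 13.6% of 8174 other genes. Of the 14 pairs of members within 10 genes, 3 were adjacent. MRM2, which methylates mitochondrial ribosomal RNA, and NUDT1, which clears oxidized nucleotides, were both lower, by -0.41 and -0.70. APOPT1 and XRCC3 were adjacent and differed in opposite directions, by 0.77 and -0.68, although other probe sets of both genes went against these directions. Among pairs further apart, PRLR and RAD1 (1.31 and -0.42) and COMTD1 and PPIF (1.36 and -0.83) also ran in opposite directions. Genes such as MRM2, NUDT1, XRCC3 and RAD1 fall outside the naming rule given with the processing, and were picked here after their values were seen.

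Among genes of secreted signals and their receptors, GRP, TIMP2 and PRLR were higher in the last arrays. GRP (gene ID 425213) encodes gastrin-releasing peptide, a neuropeptide that acts on gut motility and secretion. It was at 2.39, 4.28 and 7.24 in the first arrays and at 4.48, 6.74 and 9.24 in the last, a difference of 2.50 ± 0.25, at least 5.27-fold. The level of GRP moved with age in both sets of arrays. The first pair went from 2.44 and 2.79 at e18 to 7.24 and 6.45 at d3, and the last pair from 4.48 and 4.49 to 9.24 and 8.40. The d3 arrays of the first pair were thus above the e18 arrays of the last, and only a comparison within ages kept the pairs apart. The enteroendocrine list, which does not hold GRP, had a median difference of 0.04 over 8 genes, and enteric neurons and glia one of -0.07 over 11 genes, with no member in either.

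TIMP2 (gene ID 374178), an inhibitor of matrix metalloproteinases, was at 4.95, 5.82 and 7.49 in the first arrays and at 7.89, 8.55 and 9.74 in the last. The sets did not overlap over any of the 28 arrays, and the difference of 2.67 ± 0.19 came to 6.35-fold. The list of fibroblast and matrix genes had a median of -0.05 over 20 genes and no member. PRLR (gene ID 395660), the prolactin receptor, was at 6.94, 7.95 and 8.36 against 8.38, 9.20 and 9.58, a difference of 1.31 ± 0.13. Its sets met without overlapping. CD320, the receptor for vitamin B12 bound to transcobalamin, was higher by 0.97 ± 0.14. CD69L, a lectin-like gene, was higher by 1.54 ± 0.22, at least 2.33-fold, with first arrays of 2.75 to 3.40, close to background.

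LOC770450 (gene ID 770450), protein-coding and unnamed in the RefSeq table, had the largest difference among the 53 higher members, 3.17 ± 0.37 or at least 8.81-fold. It was at 2.51, 5.60 and 9.81 in the first arrays and at 6.03, 10.20 and 11.50 in the last. The size of its difference varied with age. The means of the pairs were 1.36 apart at the closest, at d1, when the first arrays reached 9.31 and 9.81 and the last 10.60 and 11.24. These means were 5.42 apart at d7, when the first arrays were at 5.35 and 5.34 and the last at 11.50 and 10.03. Single arrays came closest at e20, within 0.49, with the first pair at 5.54 and 4.70 and the last at 6.03 and 9.36.

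CSNK1E (gene ID 378891), casein kinase 1 epsilon, which phosphorylates period proteins of the circadian clock and components of Wnt signalling, was lower in the last arrays. It was at 7.52, 7.94 and 9.08 in the first arrays and at 4.56, 6.17 and 6.57 in the last, without overlap over all 28, and differed by -2.11 ± 0.17. The clock list had a median of 0.00 over 14 genes and no member. PPIF, cyclophilin D of the mitochondrial permeability pore, differed by -0.83 ± 0.09, and DEDD, a death-effector-domain protein, by -0.90 ± 0.07.

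Several members act on DNA or in cell division. RMI2, part of the complex that dissolves recombination intermediates, was at 5.19, 6.13 and 7.25 against 6.68, 7.62 and 8.74, higher by 1.45 ± 0.10. MCM9, a helicase of recombination repair, was higher by 1.28 ± 0.13. PRIM2, the large subunit of DNA primase, was at 2.96 to 3.49 in all first arrays, at background at 6 ages, and at 3.23 to 6.32 in the last, which gives at least 2.92-fold. The last arrays of PRIM2 were highest at e20, at 6.24 and 6.32, and stood at 3.24 and 3.23 at d14, where the pairs differed by 0.25. ANLN, anillin of the cleavage furrow, was lower by -0.89 ± 0.13 on its chosen probe set, while its other 2 probe sets over the filter differed by -0.09 and 0.05.

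Of the genes of the cytoskeleton and of membrane traffic, DYNC1H1 (gene ID 423461), the heavy chain of cytoplasmic dynein, was at 8.33, 10.02 and 10.70 in the first arrays and at 10.88, 11.27 and 11.78 in the last. It did not overlap over all 28 arrays and was higher by 1.36 ± 0.17 on its chosen probe set. Its other probe set over the filter differed by -0.02. TPM3, a tropomyosin, was higher by 1.21 ± 0.15. STON2, an endocytic adaptor, was lower by -1.25 ± 0.23, at least 2.35-fold, with last arrays at 3.11 to 3.94 and at background at 2 ages. The difference of STON2 ran from -0.10 at e18 to -2.16 at d14. TMED10, a cargo receptor of the early secretory pathway, was lower by -0.72 ± 0.08. DNAJC3, a co-chaperone of the endoplasmic reticulum, was lower by -0.72 ± 0.08. It was the 1 member among 27 genes of heat shock and the unfolded protein response, where members were 1.49% of all genes.

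Members that act in mitochondria and metabolism included CMC2 (gene ID 770023), which takes part in building cytochrome c oxidase. It was at 8.47, 8.71 and 9.13 against 7.25, 7.87 and 8.13, did not overlap over all 28 arrays, and was lower by -0.94 ± 0.08. CYP2C23b (gene ID 414841), a cytochrome P450 of the family that oxidizes fatty acids and xenobiotics, was lower by -1.64 ± 0.30. Its range within each set was wide, 5.50 to 13.67 and 4.68 to 12.01, and the level moved with age. At e18 the first pair of CYP2C23b itself stood at 5.50 and 8.70. Its pairs came within 0.04 of each other at e18 and within 0.02 at hatch. HK1, a hexokinase, was lower by -0.71 ± 0.10. MTHFS, an enzyme of folate metabolism, was higher by 1.00 ± 0.13, and COMTD1, a putative methyltransferase, by 1.36 ± 0.20. Smaller differences were those of CA8 (0.84), a catalytically inactive relative of carbonic anhydrase, HYI (0.73), a putative hydroxypyruvate isomerase, and APOPT1 (0.77 on its chosen probe set), a mitochondrial protein. Also higher were TIPRL (0.74), a regulator of protein phosphatases, TRIQK (0.79), CCDC32 (0.96) and LOC422757 (0.92), a long noncoding RNA in the RefSeq table.

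The named genes of RNA handling and ribosome assembly began with LSM4. LSM4, a subunit of the ring that binds U6 RNA, differed by -1.12 ± 0.19, from -2.05 at d1 to -0.09 at d14. RPF2, which takes part in the assembly of the large ribosomal subunit, differed by -0.90 ± 0.12, and DUS2, a tRNA dihydrouridine synthase, by -0.78 ± 0.12. PPHLN1, periphilin, which takes part in gene silencing, differed by -0.94 ± 0.17. CTSG, annotated as cathepsin G, a protease of granulocytes in mammals, was lower by -1.11 ± 0.17. C20orf173 (-1.23), TMEM229B (-0.91) and C7orf50 (-0.73) complete the 20 largest lower differences. Of 64 ribosomal proteins 1 was a member, near the 1.49% of all genes. This was RPL4, higher by 0.18 ± 0.03 on levels near 14, and the median of the list was 0.08. Of 166 solute carriers, 2 were members: SLC25A12, the mitochondrial aspartate-glutamate carrier (-0.38 ± 0.05), and SLC37A3 (0.27 ± 0.04). The median over all solute carriers was -0.01, as it was over all genes.

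**Figure D3:**
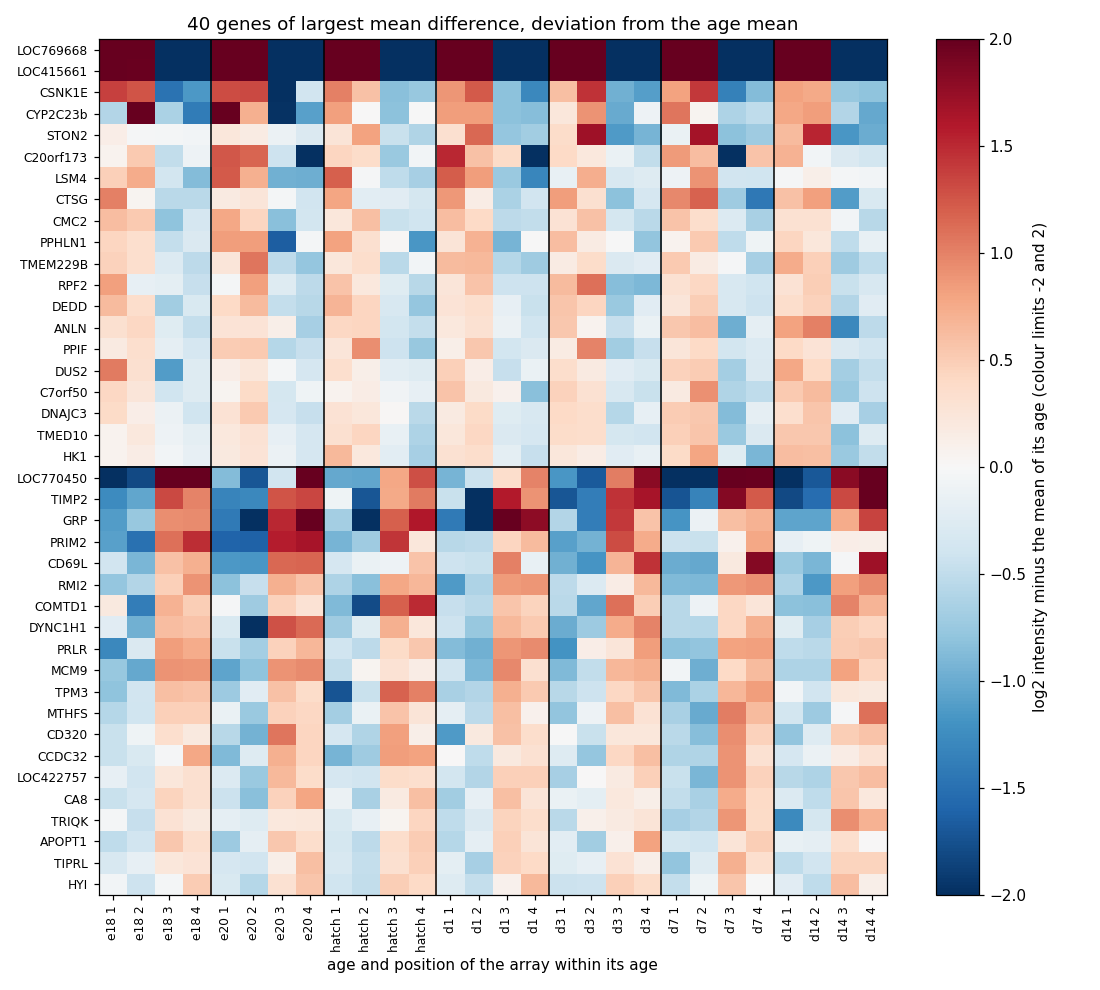
Deviation of each array from the mean of its age (log2, colour, limits -2 and 2) for the 20 genes of largest mean difference in each direction (rows), by age and position of the array within its age (columns). Lower genes stand above the horizontal line and higher genes under it. In most blocks of 4 the first 2 columns take one colour and the last 2 the other, as the choice of genes requires. C20orf173 at d1 and d7 is an exception, with 1 last array above the mean of its age and the other far under it.

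Over all 125 members the size of the mean difference ran from 0.15 to 7.34. It exceeded 1 for 20 members and 2 for 6, and was under 0.5 for 53. Its median was 0.53, against 0.10 over all genes. The median level of the members was 7.74, against 7.31 over all genes. In 9 members the 14 first and the 14 last arrays did not overlap at all, 5 of them lower and 4 higher. The 72 lower members were 0.858% of the genes measured and the 53 higher members 0.631%. Since these shares are what the rule selected, nothing is read from them.

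**Figure D4:**
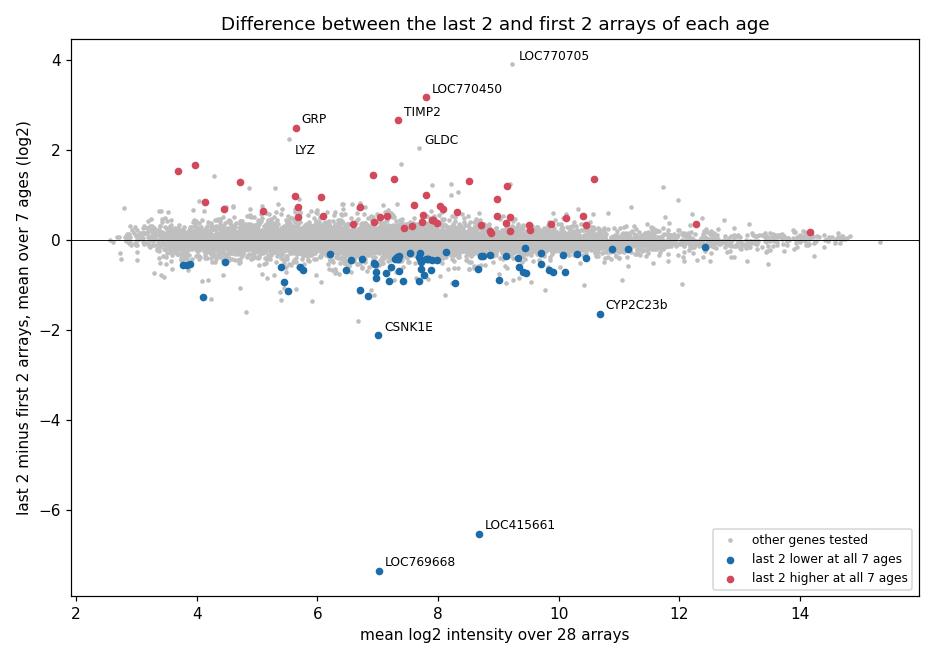
Mean difference over 7 ages, last 2 minus first 2 arrays (log2, vertical axis), against the mean level over 28 arrays (log2 intensity, horizontal axis) for 8396 genes. Blue and red points are the 72 lower and 53 higher members, and grey points all other genes. LOC769668, LOC415661, LOC770450, TIMP2 and GRP stand far from zero, and LOC770705, LYZ and GLDC are large differences that overlapped at 1 age.

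Many genes lay close to the edge of the rule. Another 258 genes did not overlap at 6 of the 7 ages in 1 direction, 107 higher and 151 lower, or 3.07% of all. Just inside, CTPS1 (-0.36), SUPT4H1 (0.34) and C3orf18 (0.70) were members although their pairs came within about 0.0017 of each other at 1 age. In CTPS1, which makes CTP, the pairs differed by as little as 0.00069 at d1. When a gap of at least 0.25 was required at every age, 16 members were left, 6 lower and 10 higher, among them LOC769668, LOC415661, CSNK1E, CMC2, LOC770450, TIMP2, GRP, RMI2 and DYNC1H1. Just outside were 3 genes with differences above 2, which 6 members exceeded: LOC770705 (3.91 ± 0.90), the lysozyme gene LYZ (2.25) and GLDC (2.04), which cleaves glycine in mitochondria. Among all genes, 48 differed by over 1 and 28 of them were no members.

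LOC770705, protein-coding and unnamed, had first arrays from 3.23 to 11.67, whereas its last arrays ran from 9.15 to 12.52. At hatch the first pair itself stood at 3.89 and 11.67, on either side of the last pair at 9.15 and 9.68. The second array of an age was above the first at all ages but d3, where the values were 9.61 and 5.74. LYZ was at 8.79 and 7.30 in the first pair at e18, against 7.32 and 7.68 in the last. At d14 its first pair was at 4.95 and 4.51 and its last pair at 8.85 and 8.39.

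The ages did not contribute equally to the rule. Between 39.4% of genes, at hatch, and 54.4%, at e18, did not overlap at a given age. With 2 arrays against 2, many genes fall so by arrangement alone, and these shares do not measure an effect of the split. The median size of the difference over all genes was 0.13 at hatch and 0.20 at e18. The members' own median size stayed between 0.47, at hatch, and 0.59, at d7. Across genes outside the 125, the differences of 2 ages had a Pearson correlation of 0.13 to 0.57 over the 21 pairs of ages. It was highest for d7 with d14 and lowest for e18 with d14. By ranks (Spearman) the correlation ran from 0.05, for e18 with e20, to 0.54, for d7 with d14. Which pair of ages was least alike thus depended on the measure. These correlations are across genes, which are not independent replicates, and each joins 2 ages that share no array.

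Other probe sets of the same genes offered a second reading that the rule did not use. Of the 125 members, 52 had another probe set over the filter, 68 probe sets in all. Of these, 54 differed in the same direction as the gene's chosen probe set and 14 in the opposite direction. Both come from the same arrays, so this compares readings of a transcript and not samples. How often other probe sets of genes outside the members share the direction of the chosen one was not worked out. Nothing is therefore read from the 54 beside the 14. For 3 genes another probe set also did not overlap at all 7 ages in the same direction: TMEM229B (-0.92 beside -0.91), LSM7 (0.68 beside 0.23) and GNMT (-0.98 beside -0.70), which methylates glycine. Among all probe sets over the filter, those of the members included, 210 of 15578 did not overlap at all 7 ages in either direction.

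For 2 genes the other probe set did not overlap at all 7 ages in the opposite direction. XRCC3, a recombination repair protein, differed by -0.68 on the chosen probe set and by 1.74 on the other, which went from a mean of 4.64 in the first arrays to 6.37 in the last. ACBD3, a Golgi protein, differed by 0.37 and by -0.58. No direction can be given to XRCC3 and ACBD3 as genes. The other 2 probe sets of APOPT1 over the filter gave -0.20 and -0.08 where the chosen one gave 0.77, and those of ANLN, at means of 7.31 to 8.91, gave -0.09 and 0.05 where the chosen one gave -0.89. Those of CMC2 and PPHLN1 gave -0.15 and 0.02 beside -0.94 for each. A second probe set of DYNC1H1 gave -0.02 where the chosen one gave 1.36, at means of 9.60 to 9.62 in both sets of arrays. The other probe sets of CYP2C23b (-0.93), PRIM2 (0.65) and TPM3 (0.49) gave smaller differences of the same direction. CSNK1E and TIMP2 had a second probe set each, with means near 2.5, which is background. LOC769668, LOC415661, LOC770450, GRP and PRLR had 1 probe set only.

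**Figure D5:**
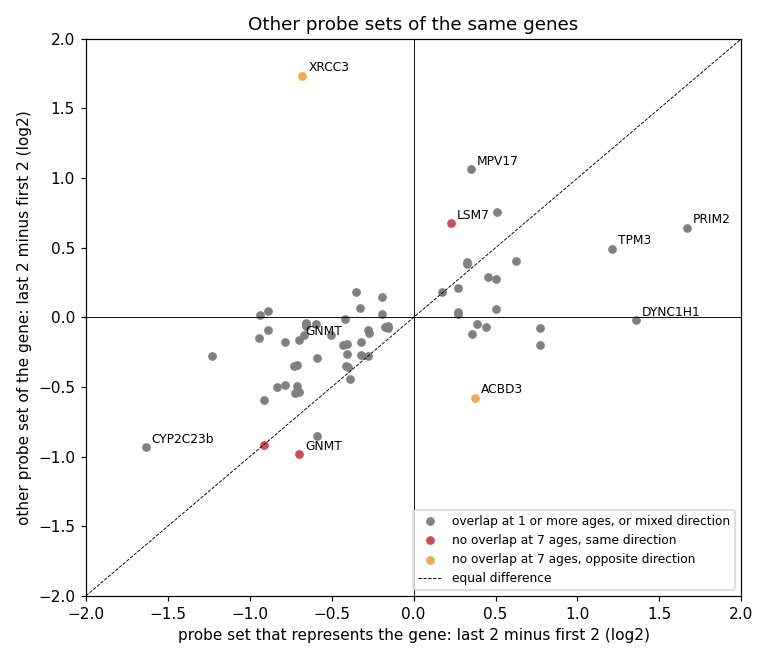
Mean difference over 7 ages (log2) of the 68 other probe sets that passed the filter (vertical axis) against that of the probe set chosen for the same gene (horizontal axis). The dashed line marks equal differences, and colour marks probe sets that did not overlap at all 7 ages in the same or the opposite direction. Of the 68 points, 54 lie in quadrants of equal sign, XRCC3 and ACBD3 lie far into the opposite ones, and DYNC1H1 lies near zero on the vertical axis.

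Probe sets whose name marks that they may match several transcripts (suffix s_at or x_at) stood for 32.0% of the members and 25.8% of all genes. Counted over all 15578 probe sets that passed the filter, with or without a gene, 210 did not overlap at all 7 ages, 100 higher and 110 lower. Of these 36 had no gene in the annotation, 17 lower and 19 higher, and 2 differed by over 2. One unnamed probe set was at 8.81, 10.16 and 10.85 in the first arrays and at 5.72, 7.88 and 8.65 in the last, a difference of -2.30. Another was at 5.21, 6.27 and 7.27 against 7.37, 8.16 and 9.17, a difference of 2.00. Some of the 210 belong to genes that another probe set represents, so these genes are no members. Picked after their values were seen, SELENOP1 (0.38, 0.73 and 1.22 on different probe sets) and SELENOW (1.38) were higher on such probe sets. PLA2G12A (-1.50) was lower on one.

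How the members moved with age was tested, since every age holds both pairs equally and the split does not enter the age means. It does enter the spread within an age. By limma's moderated F-test over the 7 ages, with Benjamini-Hochberg adjustment over all genes, 83 of 125 members changed with age (66.4%), against 90.1% of all genes. The gap between the pairs, by which members were selected, adds to the spread within an age that this test uses. Nothing is therefore read from the lower share of members called. With the pair as a block 114 of the 125 and 7739 of the 8396 genes were called. That block is the split chosen by values of these arrays, so these counts are description only. After hatch (d1 to d14) against before (e18 and e20), 32 members rose and 46 fell, beside 34.1% of all genes higher and 45.3% lower. The same spread enters this contrast, so nothing is read from how the members compare with all genes.

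Among the members that rose after hatch by limma's contrast, CYP2C23b rose by 4.90 ± 0.49 (SE, adjusted p = 1.78e-09), C20orf173 by 3.19 ± 0.43 (adjusted p = 3e-07) and LOC770450 by 2.79 ± 0.84 (adjusted p = 0.00391). GRP rose by 2.13 ± 0.64 (adjusted p = 0.0041). HK1 fell by 1.55 ± 0.20 (adjusted p = 1.44e-07), ANLN fell by 1.51 ± 0.25 (adjusted p = 6.24e-06) and LOC422757 fell by 1.83 ± 0.24 (adjusted p = 1.38e-07). Of the 6 members that differed by over 2 between the pairs, LOC770450 and GRP were called by limma's moderated F-test over ages (adjusted p = 0.00928 and 0.0178). The other 4 were not, with adjusted p = 0.999 for LOC769668, 0.945 for LOC415661, 0.9 for CSNK1E and 0.819 for TIMP2. The gap by which these 4 were selected widens the spread that the test uses. These values therefore do not show that their levels were flat over the ages. By the mean of its 4 arrays, LOC769668 was highest at d1 and lowest at e18.

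Lists of cell types and processes were set beside the members, which were 1.49% of all genes, so a list without one is near that share. No gene was a member in 20 of the 23 lists, among them 12 genes of antigen presentation, 9 of T cells, 4 of B cells, 12 of macrophages and heterophils, 4 of erythroid cells, 7 of liver and yolk sac, 6 of goblet cells, 12 of smooth muscle, 9 of endothelium, 21 of enterocytes and 12 of crypts. Nor were 10 immediate early genes, 29 xenobiotic enzymes and efflux pumps or 45 genes of the respiratory chain. The medians of the 23 lists lay between -0.20, for heat shock and the unfolded protein response, and 0.24, for the 4 erythroid genes, beside -0.01 for all genes. The part of cell make-up in the members' differences was not tested.

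The interferon list, 16 genes that cells switch on against viruses, had no member, and its difference turned round with age. At hatch 15 of the 16 were lower in the last pair, with a median of -0.82 beside 0.00 over all genes. Of these 11 did not overlap, where 18.8% of all genes were lower without overlap. At d14 all 16 were higher, with a median of 1.36 beside -0.01. Of these 15 did not overlap, where 22.1% of all genes were higher without overlap. The mean level of the list was 6.69 and 7.98 in the first pair and 5.80 and 6.01 in the last at hatch. It was 8.31 and 8.37 in the first pair and 9.40 and 10.27 in the last at d14.

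In 10 of the 16 genes the pairs did not overlap at either age, lower at hatch and higher at d14. The share of all genes that do so at both ages was not worked out. The 16 genes were read from the same arrays, so they are not separate observations. The next genes were picked after their values were seen. OASL, an antiviral protein related to oligoadenylate synthetases, was at 9.33 and 11.62 in the first pair at hatch and at 6.78 and 7.32 in the last. At d14 OASL was at 10.65 and 10.14 in the first pair and at 11.74 and 13.20 in the last. It was thus among those 10. MX1, an antiviral GTPase, was at 5.30 and 8.09 in the first pair at hatch and at 2.50 and 2.67, background, in the last. At d14 MX1 was at 7.19 and 8.16 in the first pair and at 7.49 and 10.07 in the last, so the pairs overlapped. RSAD2, viperin, overlapped at hatch, with 3.00 and 5.41 in the first pair and 2.99 and 3.06 in the last. RSAD2 was at 3.77 and 3.78 in the first pair at d14 and at 6.91 and 8.56 in the last. At d3, when the list stood at 8.47 to 9.14 in all 4 arrays, its difference was only -0.35.

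Genes of the exocrine pancreas, which are not intestinal, also differed between pairs in either direction. Their mean level over 12 genes was 10.10 to 10.53 in all 4 arrays at e18. At d14 it was 6.88 and 4.76 in the first pair and 3.71 and 3.61 in the last, a difference of -2.17, whereas at d1 it was 3.89 and 3.44 against 5.23 and 5.36, a difference of 1.63. The part of pancreatic tissue in the values of the members was not tested. The heat shock and unfolded protein list was lower in the last pair at all of d1, d3, d7 and d14, by -0.29, -0.29, -0.43 and -0.47, and higher by 0.16 at e18. At d14 24 of its 27 genes were lower, 23 of them without overlap, where 26.3% of all genes were lower without overlap. HSPA5, the main chaperone of the endoplasmic reticulum, was lower by -0.73 at d14, HSP90AA1 by -0.97 and DNAJA1 by -0.89, whereas DNAJB9 was higher by 0.22. From d1 to d14 the added hybridization controls were also lower in the last pair, by -0.13 to -0.32. These controls differed by -0.03 to 0.09 at e18, -0.12 to -0.18 at e20 and -0.02 to 0.16 at hatch. The median over all genes differed by -0.01 to 0.00 from d1 to d14. The part of such array differences in the heat shock and unfolded protein list was not tested.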

How the data were processed

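Intestinal RNA was measured on 28 Affymetrix arrays. The authors deposited 1 linear intensity per probe set and array, made with GCRMA per the submitters' processing notes; the version is not given in the sources used here. GCRMA gives dim probe sets nearly constant values, so differences there are understated. The precision is limited by 4 arrays per age.

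Of 38535 probe sets, 153 controls were left out. Symbols came from the platform annotation: 27168 probe sets had 1 symbol, 177 several and 11037 none. After log2, each of 13009 symbols was represented by its probe set of highest mean, and 8396 genes over 4 in at least 4 arrays were kept. Of these, 8325 gene IDs were in the RefSeq table (GRCg7b), used for names and order only. No arrays were averaged, since 0 pairs held identical values. Background was the 95th percentile of 541 probe sets with IDs beginning NC-. Where the lower pair was at or below background at any age, that background took its place and the fold is a lower bound.

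Members and lists were chosen with earlier results of these data known. Members are genes whose first and last pairs did not overlap, in 1 direction, at all 7 ages. Named were the 20 of largest mean difference in each direction, the 3 just inside, the 3 of largest difference just outside, and members in a list. Ages were compared in limma 3.58.1 (R 4.3.3), with 1 mean per age, a moderated F-test and a two-sided contrast, adjusted by Benjamini and Hochberg over 8396 genes and called under 0.05. The code was tested on simulated data. Alternatives were other filters, normalizations, probe sets, arrays, ages and gaps.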

Additional observations from a re-analysis of the deposited data

Results flagged for a closer look

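In 7 of the 343 groups of 4 arrays looked at (49 named genes at 7 ages), 1 array stood apart from the other 3 by Dixon's ratio at its 95% value. Chance flags about 1 group in 20 where values are unselected. Most of these genes were selected for pairs that do not overlap within each age, so that rate does not hold for them. Nothing is therefore read from the number of flags. C20orf173 at d7 had an array at 6.16 with the others at 8.75 to 9.03. LSM4 had an array at 6.21 at d3, with the others at 5.17 to 5.34, and at 5.40 at d14, with the others at 5.23 to 5.26. CTSG at hatch had an array at 6.36, with the others at 5.22 to 5.37. ANLN at e20 had an array at 9.28, with the others at 10.06 to 10.22. C3orf18 at hatch had an array at 4.91, with the others at 4.16 to 4.20, and RPL4 at e20 an array at 14.74, with the others at 14.47 to 14.51.

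The mean level differed between the pairs in opposite directions at different ages, without overlap in either, in 17 of the 23 lists. Among them are the 3 whose values by age are reported. At a given age 39.4% to 54.4% of all genes did not overlap. The share of single genes without overlap in both directions was not worked out, so nothing particular to the lists is read from this count. The interferon list ran from -1.43 at hatch to 1.5 at d14, the exocrine pancreas list from -2.17 at d14 to 1.63 at d1, and the heat shock and unfolded protein list from -0.47 at d14 to 0.16 at e18. The difference between ages was not tested, since the split was chosen by values of these arrays.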

How the results depend on the processing

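No paired analysis was possible because the labels give no numbers that the ages share. The count of 125 members (53 higher, 72 lower) stayed within 1.5 times under 5 other settings: 126 with no filter, 121 with a floor of 5, 129 with quantile normalization (111 of the 125 shared), 119 with centred arrays (101 shared, split into 60 higher and 59 lower) and 135 with the probe set of highest variance (103 shared). A required gap of 0.25 at every age left 16 (10 higher, 6 lower): CA8, CMC2, COMTD1, CSNK1E, DEDD, DYNC1H1, GRP, LOC415661, LOC769668, LOC770450, MTHFS, PPIF, RMI2, TIMP2, TIPRL and TPM3. Without e18 the count was 213 (103 higher, 110 lower), and without any other age 143 to 179. Leaving out 1 position of every age gave 260 to 336 (112 to 143 higher, 145 to 194 lower), where fewer arrays make overlap rarer. Counting all probe sets, an alternative added after seeing the data, gave 210 (100 higher, 110 lower). Genes called higher after hatch numbered 2867, and 5470 with no filter, where more genes are tested. Of 783 differences of named genes under alternatives 0 reversed and 4 moved: PPIF to -0.50 and SLC37A3 to 0.04 with the probe set of highest variance, and LOC770705 to 1.81 without position 1 and 6.01 without position 2. By the rule that chose them, members could not reverse when a position or an age was left out. Filters leave the values of a gene unchanged. Nothing is therefore read from the absence of reversals under these settings. XRCC3 and ACBD3, whose other probe sets went the opposite way, are not among these named genes. Genes at background, such as PRIM2 and CD69L, have bounds only.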
